A study of Mus musculus with 10 samples.

Results

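A group of 9 genes of the Hedgehog pathway was followed in cultured mouse lung fibroblasts: the co-receptor genes Boc and Gas1, the receptor gene Ptch1, the signal transducer gene Smo, the inhibitor genes Hhip and Sufu, and the transcription factor genes Gli1, Gli2 and Gli3. They were taken by name from the 18193 genes that the arrays measured, each read by its brightest probe set, the set of short oligonucleotides that detects a transcript. Total RNA had been hybridised to Affymetrix Mouse430_2 arrays, 5 of them with normal lung fibroblasts and 5 with carcinoma-associated fibroblasts (CAF), the fibroblasts of a tumour. Both kinds of cell had been isolated from mouse lungs, expanded in medium with 10% serum for 10 to 14 days, replated on 10 cm dishes and left overnight before RNA was taken. The labels call the arrays biological replicates; they do not say whether the arrays came from separate animals, so p-values measure only the spread between these samples. They give no strain, genotype, age or tumour model, and no Hedgehog ligand or inhibitor was part of either group. The label codes of normal replicates 1 to 3 begin with vs, and those of normal replicates 4 and 5 and of all CAF arrays with ls. What these prefixes mean is not stated.

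In Hedgehog signalling, a secreted ligand binds Patched1 at the primary cilium, aided by co-receptors such as BOC, GAS1 and CDON. Patched1 then no longer holds back Smoothened, and Smoothened releases the GLI proteins from SUFU, so that GLI2 and GLI3 act less as repressors and more as activators. Gli1, Ptch1 and Hhip are classic target genes of the pathway and are often read as its output, and Hhip and Ptch1 proteins in turn restrain the ligand. In the lung, epithelial Sonic hedgehog signals to the mesenchyme, which carries the receptors.

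The deposited values are log2 expression from RMA (robust multi-array average), which subtracts background, normalises between arrays and gives no detection call. The median probe set read 6.76 to 6.79 on the normal arrays and 6.73 to 6.74 on the CAF arrays. The pairwise correlation of arrays had a median of 0.969 within the normal group and 0.988 within CAF. The brightest of 10 fibroblast genes was Col1a2, a chain of type I collagen, at 14.61 to 15.44. Next was Vim, the filament protein vimentin, at 14.39 to 14.96. Lum, of the same list and named after its values were seen, varied more, from 8.18 to 14.49 in normal and from 7.06 to 14.12 in CAF. The mean of the list ran from 12.66 to 14.52 in normal and from 12.55 to 14.01 in CAF. The macrophage genes Lyz2, lysozyme, at 14.24 to 15.39, and Tyrobp, a myeloid signalling adaptor, at 10.37 to 14.25, were read on the same arrays. A bulk RNA sample cannot tell fewer cells of a type from less RNA per cell.

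None of the 9 genes differed between CAF and normal fibroblasts at an adjusted p under 0.05 in limma, a linear model fitted to all genes (0 of 9 called, against 0.753% of all genes). At an unadjusted p under 0.05, 3 of the 9 differed, Ptch1 with a higher mean in CAF and Gas1 and Gli2 with lower means, against 22.3% of all genes. The values of the 5 CAF and the 5 normal arrays did not overlap for 1 of the 9, Gas1, against 7.16% of all genes. The 9 differences, CAF minus normal on the log2 scale, ran from -1.47 to 1.48 with a median of -0.14, and the median over all genes was -0.04. With quantile normalisation these medians were -0.06 and -0.03, close to each other.

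**Figure D1:**
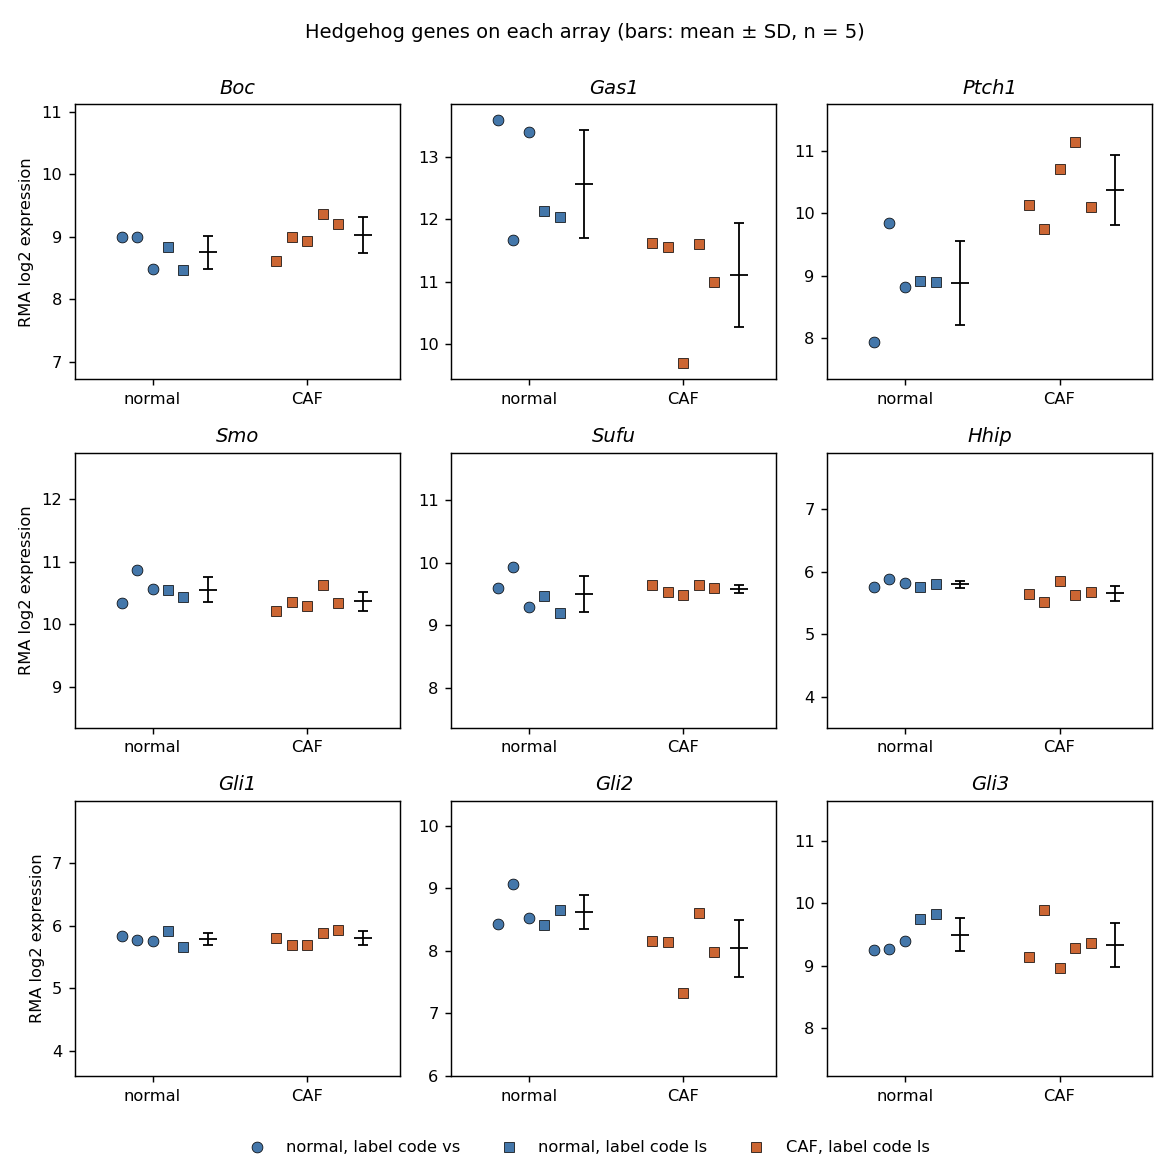
Each panel plots the RMA log2 expression of 1 gene on the 10 arrays (points) with the mean ± SD of each group of 5 (bars); every y axis spans the same number of log2 units. Gas1 was lower on all 5 CAF arrays than on any normal array, Ptch1 was higher on 4 of 5 CAF arrays than on any normal array, and Gli1 and Hhip stayed between 5.52 and 5.93.

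Ptch1, which encodes the Hedgehog receptor that restrains Smoothened, had the largest positive difference of the 9. Its brightest probe set, 1428853_at, read 7.94, 9.84, 8.82, 8.92 and 8.90 on normal replicates 1 to 5. On CAF replicates 1 to 5 it read 10.13, 9.74, 10.71, 11.14 and 10.10. All CAF arrays but replicate 2 were above the highest normal array, replicate 2, and the groups overlapped only through those 2 arrays. The means were 8.88 ± 0.67 in normal and 10.37 ± 0.56 in CAF (SD, n = 5 per group), a 2.80-fold difference that missed the threshold (log2 difference 1.48 ± 0.36 (SE), 95% interval 0.69 to 2.28, limma adjusted p = 0.0724). Against the normal arrays with prefix ls the difference was 1.46 ± 0.35, and against those with prefix vs it was 1.50 ± 0.46. Ptch1 passed in 2 of 22 other settings of the analysis, with adjusted p = 0.0281 when noisier arrays were given less weight (a setting that calls 8.78% of all genes) and adjusted p = 0.0499 without normal replicate 2 (difference 1.72). The lowest weights, 0.400, 0.331 and 0.655, fell on normal replicates 1 to 3, the arrays with prefix vs. Over the 22 settings the adjusted p of Ptch1 ran from 0.0281 to 0.312.

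The 3 probe sets of Ptch1 disagreed. The second, 1450824_at, read 7.10 ± 0.21 in normal and 7.22 ± 0.26 in CAF, a difference of 0.11 ± 0.14 (95% interval -0.20 to 0.43). The dimmest, 1439663_at, lay under the array medians and had a difference of -0.16 ± 0.07. With the mean of the 3 in place of the brightest, Ptch1 differed by 0.48 (limma adjusted p = 0.148). The 2.80-fold difference is therefore a value of 1 of the 3 probe sets.

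Gas1, which encodes a membrane-anchored protein that helps ligand reach Patched1 and was first known as a gene of growth-arrested fibroblasts, had the most negative difference. Its brightest probe set, 1416855_at, read 13.58, 11.67, 13.39, 12.13 and 12.03 on normal replicates 1 to 5. On CAF replicates 1 to 5 it read 11.62, 11.56, 9.69, 11.60 and 11.00. Every CAF value was under every normal value, though the highest CAF array and the lowest normal array, replicate 2, were only narrowly apart, and normal replicates 1 and 3 and CAF replicate 3 lay farthest out. The means were 12.56 ± 0.87 in normal and 11.10 ± 0.83 in CAF, 2.76-fold lower in CAF without passing the test (-1.47 ± 0.49, 95% interval -2.55 to -0.38, limma adjusted p = 0.129). The second probe set, 1448494_at, had a difference of -1.63 ± 0.57 and the dimmest, 1456322_at, -0.37 ± 0.09, again with no overlap between the groups. All 3 probe sets thus gave lower means in CAF. Set against normal replicates 4 and 5 (ls), Gas1 differed by -0.98 ± 0.52, and set against normal replicates 1 to 3 (vs), by -1.79 ± 0.59. These differences were not tested against each other.

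Gas1 is the gene whose groups did not overlap, and the stretch of DNA before its start is shown for that reason. The 250 bases upstream of its RefSeq start lie at chr13:60177536-60177785 (GRCm38.p6, minus strand), printed 5′ to 3′ with CG dinucleotides in capitals.

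Gas1: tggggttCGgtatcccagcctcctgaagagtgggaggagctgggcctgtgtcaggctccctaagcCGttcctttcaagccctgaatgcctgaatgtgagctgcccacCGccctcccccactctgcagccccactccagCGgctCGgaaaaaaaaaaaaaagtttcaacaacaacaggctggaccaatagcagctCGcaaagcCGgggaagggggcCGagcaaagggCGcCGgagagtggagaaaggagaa

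This stretch holds 10 CG dinucleotides, against a median of 6 over all 32851 RefSeq windows of the same length, and 58.8% of its bases are G or C, against a median of 52.4%. The GLI binding motif GACCACCCA (on the other strand TGGGTGGTC) was searched on both strands. It was in 0 of the 7 upstream windows matched to the 9 genes, those of Gas1, Gli2, Gli3, Hhip, Ptch1, Smo and Sufu, and in 0.225% of all windows. That says only that these letters are not in these windows. The Ptch1 window, chr13:63565736-63565985 on the minus strand, lies inside the Ptch1 locus, which ends at 63573460. It is thus upstream of a start inside the gene. The Gli2 window also lies inside its locus, and the Hhip window partly does.

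Boc, the gene of a cell-surface co-receptor of the same family as CDON, had a small positive difference. Its brightest probe set, 1427516_a_at, read 9.0, 8.99, 8.48, 8.83 and 8.47 on the normal arrays and 8.62, 8.99, 8.93, 9.37 and 9.21 on the CAF arrays. The groups overlapped, with 2 CAF arrays above all normal arrays (0.27 ± 0.16, 95% interval -0.09 to 0.64, limma adjusted p = 0.348). The second probe set, 1426869_at, which was nearly as bright, differed by more, 0.71 ± 0.21 (limma adjusted p = 0.102, each probe set tested singly). At the dimmest the difference was 0.10 ± 0.07. Gas1 and Boc, both co-receptor genes, thus had differences of opposite sign, neither of which passed. The remaining co-receptor of this kind, Cdon, was looked up with its values known and read 9.01 ± 0.20 in normal and 8.68 ± 0.22 in CAF (-0.34 ± 0.13, adjusted p = 0.162).

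**Figure D2:**
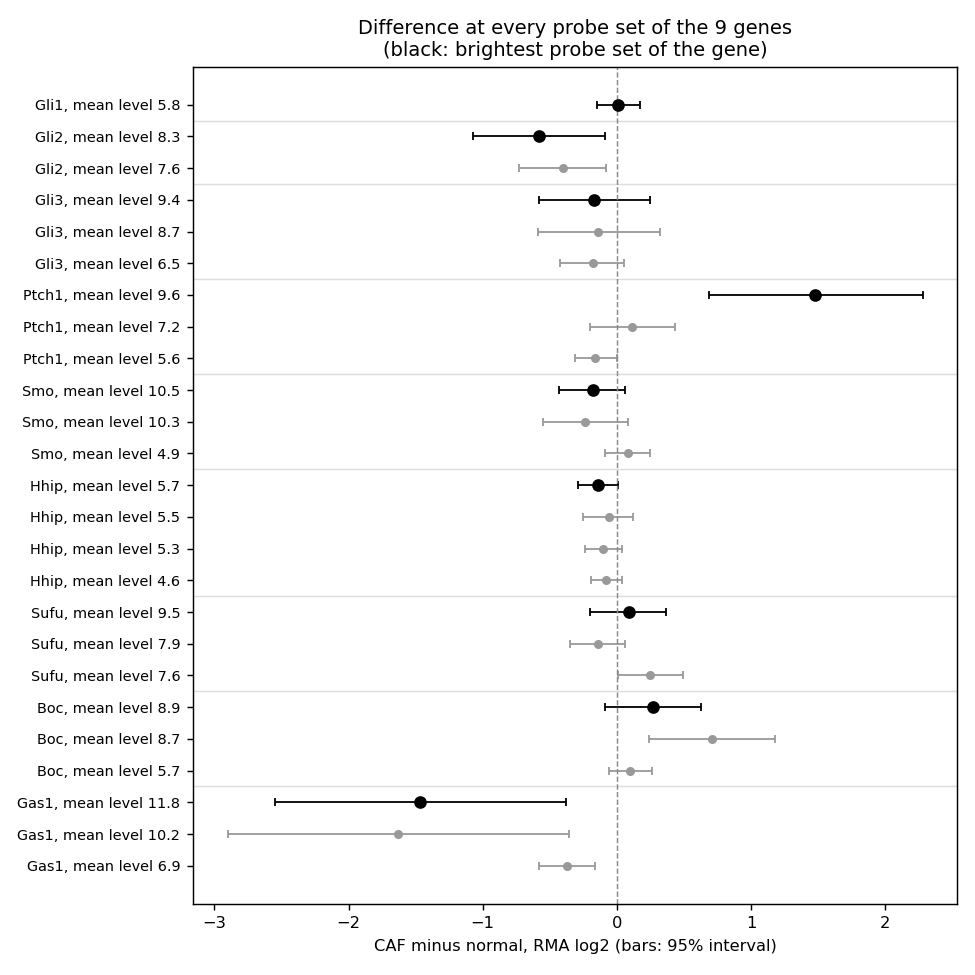
Each point is the CAF minus normal difference of 1 probe set on the RMA log2 scale with its 95% interval from limma; the labels give the gene and the mean level of the probe set over all arrays, and black marks the brightest probe set. The 3 Gas1 probe sets lie left of 0, while of the 3 Ptch1 probe sets only the brightest, at 1.48, has an interval above 0.

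Smo, the gene of the seven-pass membrane protein Smoothened that carries the signal into the cell, was close in the groups. It read 10.34, 10.87, 10.57, 10.55 and 10.43 on the normal arrays and 10.22, 10.35, 10.30, 10.63 and 10.34 on the CAF arrays. The ranges overlapped, with 3 CAF arrays under the lowest normal value, replicates 1 and 3 and, by less than the rounding shows, replicate 5 (-0.18 ± 0.11, 95% interval -0.43 to 0.07, limma adjusted p = 0.353). This interval excludes a change of 1 log2 unit in either direction. The second probe set of Smo, almost as bright, had a difference of -0.24 ± 0.14. The brightest one carries the suffix _s_at, given to probes shared by several transcripts.

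The inhibitor genes had small differences. Sufu, whose product holds GLI proteins in the cytoplasm, read 9.60, 9.93, 9.29, 9.47 and 9.19 on the normal arrays and 9.64, 9.54, 9.48, 9.65 and 9.60 on the CAF arrays. The CAF values all lay within the normal range, and their spread was smaller, 0.07 against 0.29 (SD, n = 5 per group), as it was for 71.1% of all genes (difference 0.09 ± 0.13, limma adjusted p = 0.715). Its dimmer probe sets had differences of -0.14 ± 0.09 and 0.25 ± 0.11. Hhip, a decoy receptor that binds ligand, read 5.75, 5.89, 5.82, 5.75 and 5.80 in normal and 5.64, 5.52, 5.85, 5.63 and 5.67 in CAF. All of these are under the array medians, where a value may be background, so the difference of -0.14 ± 0.07 (limma adjusted p = 0.266) has little weight as a measure of transcript level. The 3 other Hhip probe sets were dimmer still, with differences of -0.10 to -0.06.

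Gli1, the transcription factor gene most directly induced by the pathway, was also at the bottom of the scale. Its only probe set read 5.84, 5.78, 5.76, 5.91 and 5.66 on the normal arrays and 5.81, 5.69, 5.69, 5.89 and 5.93 on the CAF arrays. The ranges nearly coincide, and the difference was 0.01 ± 0.07 (95% interval -0.15 to 0.17, limma adjusted p = 0.958). These levels lie under the medians of all arrays, so the data cannot say whether Gli1 was transcribed below what the array can read. Among the 3 classic target genes in this list, the brightest probe set of Ptch1 alone had a difference of more than 1 log2 unit.

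Gli2 and Gli3, the transcription factors that exist as activators and repressors, were read above the array medians. Gli2 read 8.43, 9.07, 8.53, 8.42 and 8.65 on the normal arrays and 8.15, 8.14, 7.32, 8.60 and 7.98 on the CAF arrays. On 4 of 5 CAF arrays it was under the lowest normal value, and CAF replicate 4 lay within the normal range (8.62 ± 0.27 against 8.04 ± 0.46, difference -0.58 ± 0.22, 95% interval -1.08 to -0.09, limma adjusted p = 0.166). Its other probe set, 1446086_s_at, had a difference of -0.40 ± 0.15. With ls normal arrays alone as the comparison, Gli2 differed by -0.50 ± 0.30, and with vs ones alone by -0.64 ± 0.28. Gli3 read 9.25, 9.27, 9.40, 9.75 and 9.83 on the normal arrays and 9.14, 9.90, 8.97, 9.28 and 9.37 on the CAF arrays. Its groups overlapped widely (-0.17 ± 0.19, limma adjusted p = 0.624), with a difference of -0.46 ± 0.23 against the ls normal arrays and 0.03 ± 0.20 against the vs normal arrays.

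Over all probe sets of the 9 genes, 25 in number, 0 passed in limma when every probe set was tested singly, against 1.23% of all probe sets, and 8 had an unadjusted p under 0.05, against 22.0%. Of the 16 dimmer ones, 13 had the sign of the brightest probe set of their gene. The exceptions were 1 probe set each of Ptch1, Smo and Sufu.

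Markers of other cell types varied between the arrays and are given beside the values above. The mesothelial list, genes of the cells that line the lung surface, had all 8 of its members measured, and its mean level spanned 6.05 to 10.43 across the normal arrays and 6.99 to 9.22 across the CAF arrays. All 8 differences were negative, 2 with an unadjusted p under 0.05, where 10416 of the 18193 genes had negative differences and 11.8% were lower at that p. Lrrn4, a mesothelial membrane protein gene named after its values were seen, differed by -2.99 ± 1.15 (limma adjusted p = 0.170), the most negative difference of all genes tested. It read 11.77 on normal replicate 1 and 5.33 on normal replicate 2. Its brightest members, Upk1b and Upk3b, ran from 6.63 to 13.57 and from 5.35 to 14.03 on normal arrays. Normal replicate 1, with the highest Gas1 and the lowest Ptch1 of its group, had the highest mesothelial mean, 10.43, and normal replicate 2, with the lowest Gas1 and the highest Ptch1, had the lowest, 6.05. Normal replicates 3 and 5 had near-equal mesothelial means, 9.80 and 9.78, with Gas1 at 13.39 and 12.03.

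The macrophage list, with 10 of 10 members measured, had a mean from 9.50 to 12.93 in normal and from 10.37 to 12.85 in CAF. All 10 of its differences were positive, 0 with an unadjusted p under 0.05, where 7777 of the 18193 genes had positive differences. Normal replicate 1 and CAF replicate 1 had close macrophage means, 12.93 and 12.85, and Ptch1 values of 7.94 and 10.13. Among normal arrays, macrophage levels were highest on replicate 1 and lowest on replicate 2, the arrays where Ptch1 was lowest and highest. Gas1 ranked normal replicates 1 to 5 as the macrophage mean did, which read 12.93, 9.50, 12.04, 11.01 and 10.04. Within CAF the ranks differed. CAF replicate 5 had a macrophage mean of 12.22 with Gas1 at 11.00, and CAF replicate 2 had 11.10 with Gas1 at 11.56. The list for pericytes and vascular smooth muscle, 8 of 8 measured, had means from 9.79 to 10.54 in normal and from 10.45 to 10.91 in CAF, with 7 of 8 differences positive and 2 higher at an unadjusted p under 0.05, against 10.5% of all genes. Its brightest genes, Acta2, smooth muscle actin, and Cnn1, calponin, differed by 0.10 ± 0.10 and 0.14 ± 0.16. The genes with the low p, named after their values were seen, were Kcnj8, a potassium channel gene of pericytes, with no overlap between groups (1.32 ± 0.28, limma adjusted p = 0.0589), and Myh11, smooth muscle myosin (1.12 ± 0.41, adjusted p = 0.152). The part of these cell types in the differences of Ptch1 and Gas1 was not tested.

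Epithelial genes, of the cells that make Hedgehog ligand in lung, had list means from 6.67 to 7.64 in normal and from 6.40 to 7.34 in CAF (10 of 10 measured), and Krt18 and Krt8, keratins that mesothelium also makes, were the brightest. Of its differences 1 of 10 was positive, and 3 genes were lower at an unadjusted p under 0.05. Endothelial genes (10 of 10 measured, led by Esam and Kdr) had list means from 6.21 to 6.54 in normal and from 6.17 to 6.62 in CAF, with 1 gene higher and 3 lower at an unadjusted p under 0.05. Cartilage genes (6 of 6, led by Col9a1 and Sox9) had 7.11 to 7.42 and 6.88 to 7.14, with 0 of 6 differences positive and 3 genes lower at an unadjusted p under 0.05. Among them Col2a1, type II collagen, named after its values were seen, did not overlap between groups (-0.41 ± 0.08, limma adjusted p = 0.0540). Nor did Col9a1 (-0.22 ± 0.06, adjusted p = 0.0860) and, in the other lists of this paragraph, S100b, Epcam and Emcn. Epcam and Emcn were named after their values were seen. Over all genes, 7.16% did not overlap. Schwann cell genes (4 of 6) had 6.62 to 7.02 and 6.86 to 7.23. They were led by S100b, which differed by 1.37 ± 0.26 (limma adjusted p = 0.0518), and Sox10, at -0.10 ± 0.08. Of the 4 measured, S100b alone had a positive difference. None of the marker genes in these lists passed the test in limma, against 0.753% of all genes. Over all genes, 10.5% were higher and 11.8% lower at an unadjusted p under 0.05, and 10416 of 18193 differences were negative.

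**Figure D3:**
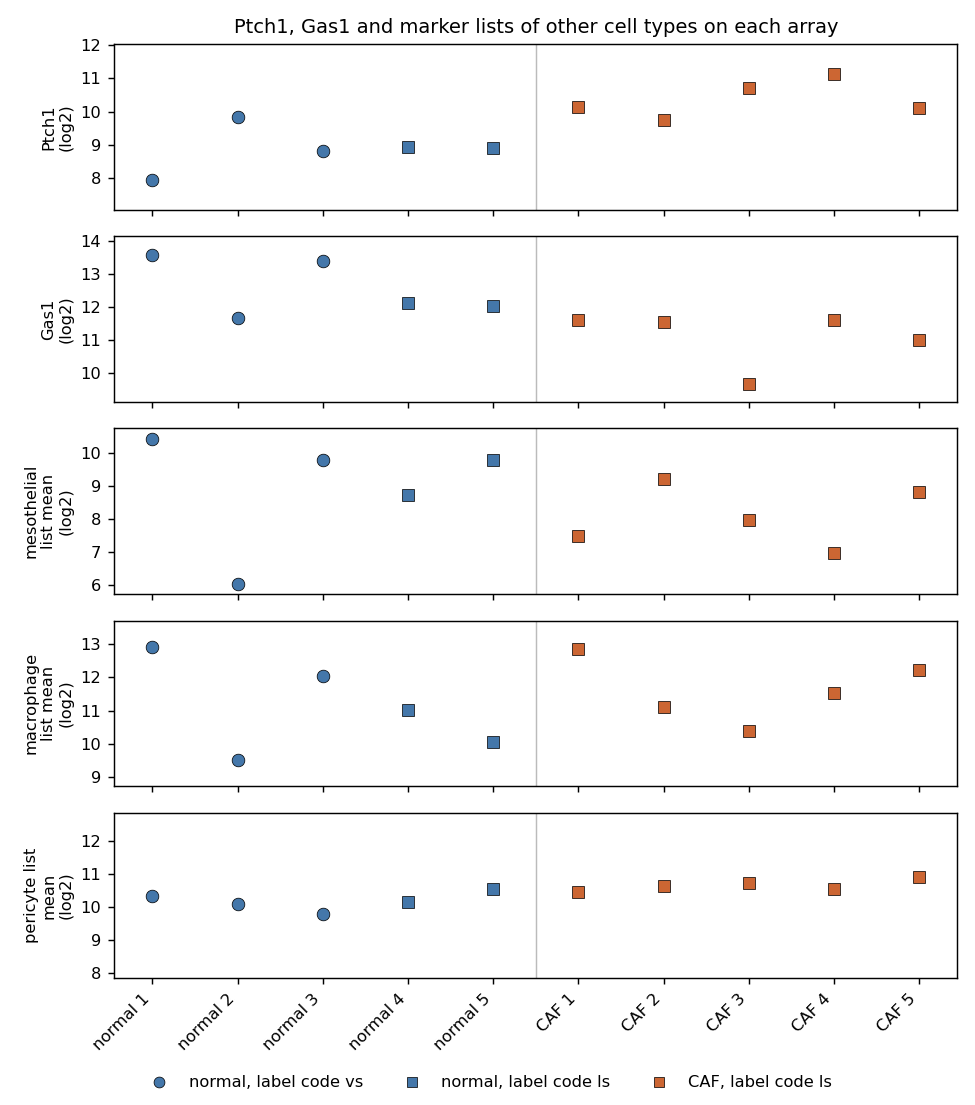
RMA log2 levels of Ptch1 and Gas1 and the mean log2 level of 3 marker lists are plotted for each of the 10 arrays. Within the normal group, replicate 2 has the lowest mesothelial mean (6.05) and replicate 1 the highest (10.43), while every CAF array has lower Gas1 than every normal array.

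The rest of the pathway was described with 5 lists of 73 genes grouped by role, of which 69 were measured; 0 passed in limma, against 0.753% of all genes. At an unadjusted p under 0.05, 9 were higher and 10 lower in CAF, against 10.5% and 11.8% of all genes. Their median difference was 0.01, beside -0.04 for all genes, and with quantile normalisation it was -0.06 beside -0.03, so it has no settled sign.

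Among the ligand genes themselves, Shh and Dhh were somewhat above the array medians and Ihh was under them. With no detection call, a level somewhat above the median may be background too. Shh read 7.44 ± 0.18 in normal and 7.23 ± 0.12 in CAF, Ihh 5.71 ± 0.22 and 5.57 ± 0.09, and Dhh 7.15 ± 0.13 and 7.07 ± 0.07; these 3 were named after their values were seen. Of the 8 genes for ligands and their processing and release, 0 passed, and the median difference was -0.15. Disp1, which encodes the transporter that releases lipid-bound ligand, was 9.64 ± 0.49 in normal and 10.28 ± 0.27 in CAF (0.63 ± 0.23, limma adjusted p = 0.150). Scube1, of a family of secreted proteins some of which help release ligand, was 7.82 ± 0.16 and 7.46 ± 0.12, with no overlap (-0.36 ± 0.09, adjusted p = 0.0832).

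Other co-receptor genes included glypicans, surface proteoglycans that bind ligand. Gpc3, which competes with Patched1 for ligand, read 10.59, 7.64, 11.21, 10.92 and 10.78 on the normal arrays and 7.20, 9.77, 7.39, 8.99 and 7.69 on the CAF arrays. Normal replicate 2 was far under the rest of its group and within the CAF range, while the other 4 normal arrays were above all CAF arrays (-2.02 ± 0.75, limma adjusted p = 0.158). Gpc4 had a difference of the other sign, 0.89 ± 0.43 (adjusted p = 0.254). In this list 0 of 5 measured genes passed, with a median difference of -0.30.

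Of 22 genes for signal transduction and GLI regulation, 0 passed and the median was 0.18. Positive differences were found for 15 of them, and for 7777 of all 18193 genes. Quantile normalisation brought the median of the list to 0.08. Kif7, the ciliary kinesin that organises GLI proteins at the cilium tip, ran from 8.56 to 8.74 in normal and from 8.13 to 8.50 in CAF, with no overlap (-0.34 ± 0.08, limma adjusted p = 0.0668). Gpr161, a ciliary receptor that keeps the pathway off through protein kinase A, read 7.86 to 8.30 and 8.35 to 8.59, again with no overlap (0.40 ± 0.10, adjusted p = 0.0774). The mean of the 2 Gpr161 probe sets differed by 0.23. Spop and Cul3, partners in the ubiquitin ligase that degrades GLI2 and GLI3, also did not overlap between groups and had differences of 0.50 ± 0.13 (adjusted p = 0.0860) and 0.31 ± 0.09 (adjusted p = 0.0963); both were named after their values were seen. These 4 genes account for every gene of the list with no overlap, 3 higher and 1 lower, against 2.97% and 4.19% of all genes.

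Of 14 other genes known as GLI targets, 0 passed, 7 differences were positive and 7 negative, and the median was -0.04. Foxf2, a forkhead factor of mesenchyme, read 7.50, 8.03, 7.59, 7.97 and 7.33 on the normal arrays and 8.30, 8.28, 9.31, 8.23 and 8.71 on the CAF arrays. All CAF values of this brightest probe set were above all normal values (0.88 ± 0.23, 1.85-fold, limma adjusted p = 0.0844). With the mean of its 2 probe sets, Foxf2 differed by 0.44. Its relative Foxf1, named after its values were seen, overlapped, with 10.44 ± 0.43 in normal and 10.63 ± 0.45 in CAF (0.18 ± 0.25, adjusted p = 0.694). Jag2, a Notch ligand gene, was lower on every CAF array than on any normal array (-0.26 ± 0.06, adjusted p = 0.0709). With the mean of its 2 probe sets, the Jag2 difference was -0.14. Bcl2, a survival gene also named after its values were seen, had 0.51 ± 0.14 (adjusted p = 0.0933). The differences of the targets thus had no shared sign. As none passed, they do not settle whether the targets changed in 1 direction.

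Of 20 genes for assembly of the primary cilium, where the pathway is transduced, 0 passed, 10 differences were positive and 10 negative, with a median of 0.01 that turned to -0.09 with quantile normalisation. Kif3a, a subunit of the motor that builds the cilium, had 0.57 ± 0.25 (limma adjusted p = 0.209), and Ift88, a carrier protein of transport along it, had -0.34 ± 0.14 (adjusted p = 0.186).

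**Figure D4:**
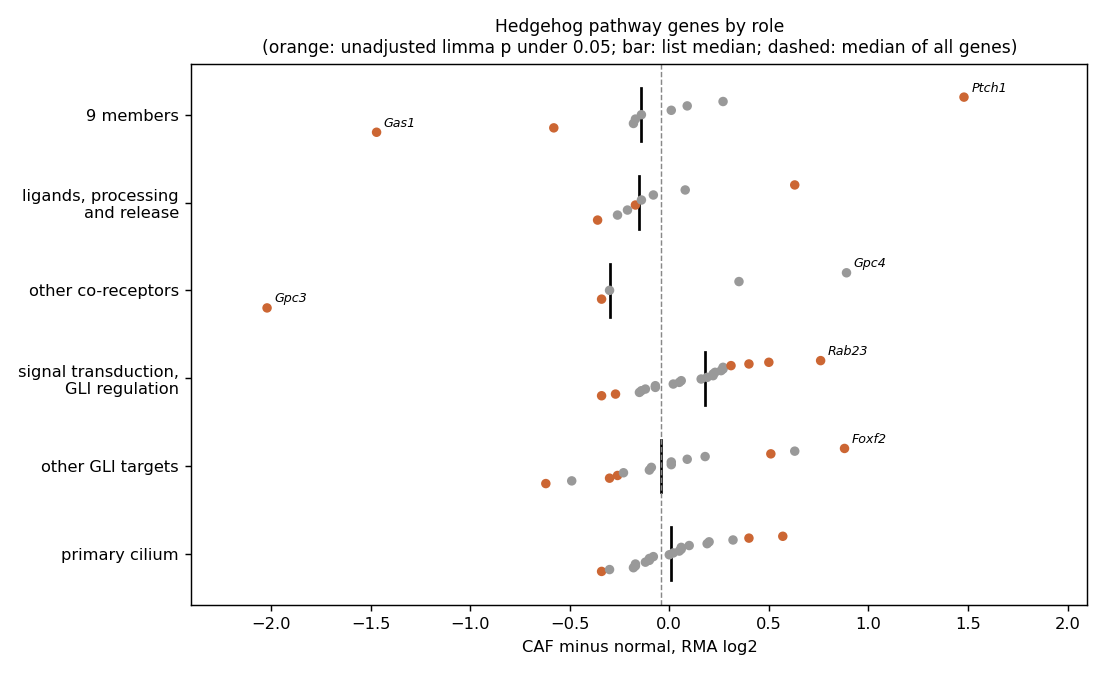
Each point is the CAF minus normal difference of 1 gene on the RMA log2 scale, by role; orange marks an unadjusted limma p under 0.05, bars mark list medians and the dashed line the median of all genes, -0.04. Ptch1 (1.48) and Gas1 (-1.47) lie farthest from 0 among the 9 genes and Gpc3 (-2.02) farthest among the others.

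The genes whose profiles over the 10 arrays were most like those of Ptch1, Gli1 and Hhip were found by the root mean square difference between profiles, each gene taken minus its own mean. For Ptch1, whose own values deviate from their mean by 0.925 in this measure, they were Slco3a1, an organic anion transporter gene, at 0.346, Rasl12, of the Ras-like family, at 0.370, and Hipk2, a nuclear kinase gene, at 0.398. Their CAF minus normal differences were 1.06 ± 0.34, 1.03 ± 0.27 and 1.32 ± 0.28, and none passed (limma adjusted p = 0.120, 0.0873 and 0.0619). Slco3a1 followed Ptch1 within the normal group, with 9.08 on replicate 1 and 11.19 on replicate 2, its lowest and highest normal values. Gli1 and Hhip deviate from their means by only 0.091 and 0.109, and the nearest profiles, those of Tpte, Zfp605 and Onecut3 and of Serpina5, Trpm6 and Cpa1, were as flat.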

How the data were processed

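Per the submitters' processing notes, the authors made the deposited log2 values with RMA in Affymetrix Expression Console; limma is among the tools named, and versions are not given in the sources used here. RMA normalises between arrays, so a group difference is measured against the bulk of probe sets. Whole arrays still differed by group, with an upper quartile of 9.05 to 9.12 on normal arrays and 9.21 to 9.29 on CAF arrays. Of 45037 probe sets other than controls, 34945 had 1 gene symbol, and each gene was represented by its brightest one over all arrays. Symbols were brought up to date with a RefSeq gene table (GRCm38.p6).

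The test was limma (version 3.58.1, R 4.3.3) with group as the only term, with Benjamini-Hochberg adjustment over all 18193 genes and a threshold of 0.05. The script was tested on simulated data. With 5 arrays per group, the number of arrays limits the precision.

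The 9 genes, the lists and the markers were chosen with earlier results of these data known. The text names the 9 genes, the member of each role list with the smallest p in each direction, the 2 brightest markers of each cell type and the 3 most alike profiles of Ptch1, Gli1 and Hhip. Exceptions are marked. The alternatives, 22 in all, covered normalisation, filtering, probe sets, test, weights, label prefix, replicate block and leaving out each array. Replicate numbers were not taken as pairs in the main test.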

Additional observations from a re-analysis of the deposited data

Results flagged for a closer look

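Among the 44 genes named by rule, 7 of 88 groups of 5 arrays held 1 array apart from the others by more than Dixon's criterion allows; chance gives about 1 in 20 groups. None of these was in the 9 Hedgehog genes. Disp1 read 9.80 on CAF replicate 1, with the next CAF array at 10.33. Gpc4 read 13.51 on CAF replicate 3, with the next at 12.42. Gpc3 read 7.64 on normal replicate 2, with the next at 10.59. Kif3a read 9.84 on CAF replicate 2, with the next at 10.52. The endothelial marker Esam read 11.47 on CAF replicate 2, with the next at 8.34. Serpina5 read 5.01 on normal replicate 2, with the next at 4.81, and Trpm6 read 6.62 on CAF replicate 3, with the next at 6.42; both genes are under the array medians.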

How the results depend on the processing

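The count of called genes was 137, and it was 285 with arrays centred on their medians, 50 over the brighter genes only, 429 with probe sets tested singly, 46 with eBayes using trend and robust, 1597 with array weights, 0 in the exact Wilcoxon test (lowest adjusted p 0.111), 0 with the label prefix as a term, 1 against the ls normal arrays and 0 to 166 without 1 array. Genes with an unadjusted p under 0.05 numbered 3184 in the Wilcoxon test and 2649 with the prefix term. Without normal replicates 1 to 5 in turn the count was 24, 166, 0, 63 and 46, and without CAF replicates 1 to 5 it was 0, 153, 0, 1 and 0; where it was 0, 3852 (normal replicate 3), 3378, 3538 and 3003 (CAF replicates 1, 3 and 5) genes had an unadjusted p under 0.05. The filter tests fewer genes and single probe sets are more features by construction. The exact Wilcoxon test gives its smallest possible p to genes whose groups do not overlap, here 1302 of 18193. Adjusted, that p was 0.111, so this test could call 0 genes. Every CAF array has prefix ls, so the prefix term and the ls comparison set CAF against the ls normal arrays only. How far this lowered their counts was not tested, nor was the cause for the remaining settings. Quantile normalisation gave 92 calls, 43 higher and 49 lower, against 102 and 35. Median centring gave 250 higher and 35 lower.

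Of the 9 genes, 0 were called, except 1, Ptch1, with array weights, and 0 to 1 without 1 array, again Ptch1, without normal replicate 2. Of the 69 other pathway genes, 0 were called, except 8 with array weights (Scube1, Gpc3, Kif7, Gpr161, Foxf2, Jag2, Kif3a and, named after its values were seen, Foxm1) and 0 to 1 without 1 array (Kif7, without CAF replicate 2). Array weights called 8.78% of all genes. The arrays weighted least were normal replicates 1 to 3, those with prefix vs. Ptch1, Gas1, Gli2, Smo, Hhip and Boc kept their sign in every alternative that included them; Gli1 did in 18 of 21, Gli3 in 21 of 22 and Sufu in 20 of 22. Several alternatives keep the main difference by construction, so the sign could not change there. These are the filter, single probe sets, eBayes with trend and robust, the Wilcoxon test and the replicate block. The prefix term repeats the difference against the ls normal arrays. Ptch1 ran from 0.48 to 1.72, Gas1 from -1.79 to -0.98 and Gli2 from -0.72 to -0.40.

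For same-numbered normal and CAF arrays, replicates 1 to 5, deviations from the group means had correlations of 0.339, -0.528, -0.476, -0.056 and -0.086. These were not set against those of differently numbered arrays, so they do not settle whether the numbers pair the samples. With the replicate block limma called 0 genes, with 3017 at an unadjusted p under 0.05.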
